A study of Mus musculus with 6 samples.

Results

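The 28 genes described here encode the enzymes that build purine and pyrimidine nucleotides from small precursors, turn them into the building blocks of DNA, and supply the folate-bound carbon groups that this synthesis consumes. They were chosen by name as a list of enzymes by a rule that uses no measured value, though with earlier results of these data known, and are 28 of the 23420 genes in a table of RNA-Seq expression from mouse embryonic lungs at stage E11.5dpc (*days post coitus*). All 28 were listed in the table and all 28 passed the filter on low values. The 3 control pools were Raptor f/+; ShhCre/+ and the 3 mutant pools were Raptor f/f; ShhCre/+, so both groups carried the Cre and at least 1 floxed allele of *Rptor*, the gene for the defining subunit of the growth-controlling kinase complex mTORC1. This Cre is expressed from the *Shh* locus, which is active across the lung epithelium, and deletes floxed *Rptor* there, whereas mesenchyme, vessels and blood in the same lungs lie outside its main domain. Per the study's methods, each pool combined 3 or 4 whole lungs of 1 genotype. For its work in general, the study states that mutants of different litters were combined for statistics, controls were littermates and both sexes were used.

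Purines are assembled on phosphoribosyl pyrophosphate (PRPP) through a chain of enzymes that ends in inosine monophosphate (IMP), which is then converted to the adenine and guanine nucleotides. Pyrimidines are made as a free ring that receives PRPP later, giving uridine monophosphate (UMP) and then cytidine triphosphate (CTP), while ribonucleotide reductase and the thymidylate enzymes turn the products of both branches into DNA precursors. The folate cycle hands formyl and methylene groups to purine and thymidylate synthesis, and mTORC1 is known in other cells to stimulate nucleotide synthesis through phosphorylation of the CAD protein and through ATF4, a transcription factor that acts on folate enzymes.

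The 6 libraries held between 20197642 and 21276090 reads assigned to genes, and every member was covered by at least 551 reads in every library, so that the Poisson counting error of a single value was at most 4.26%. Values are normalized counts, that is, reads divided by the library's size factor. The 3 samples of a group are separate pools, but the labels do not say from how many litters, and p-values measure the spread between these pools. Whole-lung *Rptor* was 2199 ± 77.0 (SD, n = 3) in controls and 2103 ± 69.1 (SD, n = 3) in mutants, a log2 difference of -0.065 (limma, adjusted p = 0.584), so this transcript did not separate the groups in whole lungs. The epithelial adhesion gene *Cdh1* fell in the mutants, from 1439 ± 131 to 736 ± 97.7 (SD, n = 3 each, log2 fold change -0.97, limma adjusted p = 0.00728). *Nkx2-1*, the transcription factor that defines lung epithelium, measured 2553, 2686 and 2060 in controls and 1977, 2061 and 2050 in mutants (log2 fold change -0.25, unadjusted p = 0.0130, limma adjusted p = 0.219). In whole-lung RNA, fewer cells of a type and less RNA per cell cannot be told apart. *Xist*, the RNA of the inactive X chromosome and hence a mark of female embryos, stood at 4599, 309 and 12990 in the control pools and at 41.9, 466 and 161 in the mutant pools, highest in controls 1 and 3. The Y-linked gene *Ddx3y* measured 1016, 1198 and 734.5 in controls and 1212, 1198 and 1177 in mutants, lowest in control 3. The mix of sexes thus appeared to differ between pools and between the groups, and the labels do not give it.

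The upstream regions of 5 genes are shown, because the results below describe these genes at length. *Prps1* and *Prps2* are a pair whose ratio did not overlap between the groups. *Gart*, *Rrm1* and *Mthfd1* were lower in every mutant pool than in every control pool. They belong to the purine, deoxynucleotide and folate branches, each of which also held members that overlapped. Each region is the stretch of 250 bases before the RefSeq transcription start in build GRCm38.p6, read 5′ to 3′ on the gene's strand. Capitals mark CCAAT or its reverse complement ATTGG (the letters bound by NF-Y), and TGATGNAA (the letters bound by ATF4 with its partners). The windows lie at chrX:140456353-140456602 (plus strand) for *Prps1*, chrX:167382750-167382999 (minus strand) for *Prps2*, chr16:91646973-91647222 (minus strand) for *Gart*, chr7:102441445-102441694 (plus strand) for *Rrm1* and chr12:76254982-76255231 (plus strand) for *Mthfd1*.
Prps1: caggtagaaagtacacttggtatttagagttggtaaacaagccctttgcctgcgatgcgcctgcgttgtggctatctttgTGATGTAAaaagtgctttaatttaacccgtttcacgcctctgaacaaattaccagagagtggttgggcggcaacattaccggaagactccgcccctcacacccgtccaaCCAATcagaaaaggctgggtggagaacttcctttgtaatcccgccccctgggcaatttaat
Prps2: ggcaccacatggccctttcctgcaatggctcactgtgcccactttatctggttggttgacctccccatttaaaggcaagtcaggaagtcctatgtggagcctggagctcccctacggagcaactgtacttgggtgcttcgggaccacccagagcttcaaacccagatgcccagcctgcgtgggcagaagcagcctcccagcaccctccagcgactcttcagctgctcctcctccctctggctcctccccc
Gart: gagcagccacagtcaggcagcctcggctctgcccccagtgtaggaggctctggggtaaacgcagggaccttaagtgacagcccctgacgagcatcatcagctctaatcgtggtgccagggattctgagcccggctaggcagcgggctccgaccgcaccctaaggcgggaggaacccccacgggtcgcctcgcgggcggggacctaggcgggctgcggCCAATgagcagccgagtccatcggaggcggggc
Rrm1: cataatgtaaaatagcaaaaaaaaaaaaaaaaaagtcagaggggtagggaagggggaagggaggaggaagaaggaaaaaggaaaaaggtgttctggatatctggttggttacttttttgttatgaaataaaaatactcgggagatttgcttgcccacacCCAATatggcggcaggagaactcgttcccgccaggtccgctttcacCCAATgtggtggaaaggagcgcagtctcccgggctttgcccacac
Mthfd1: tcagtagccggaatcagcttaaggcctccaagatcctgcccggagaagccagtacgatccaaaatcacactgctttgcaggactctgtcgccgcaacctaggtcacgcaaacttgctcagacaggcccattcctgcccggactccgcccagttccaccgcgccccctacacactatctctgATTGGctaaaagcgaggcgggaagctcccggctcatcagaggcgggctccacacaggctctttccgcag
Of the 28 members, 26 had an upstream region in the RefSeq table, and *Pfas* and *Dhodh* are named only. CCAAT, searched on both strands, was present before 11 of the 26 members, which is 42.3% against 37.5% of all 27025 genes with such a region. The E-box CACGTG, a palindrome bound by MYC and related factors, was present before 6 of the 26 (*Paics*, *Atic*, *Impdh2*, *Tyms*, *Dtymk* and *Nme1*), 23.1% against 6.86% of all genes. TGATGNAA was found before *Prps1* alone among the members (3.85% against 3.91% of all genes), and an E2F octamer (TTTCCCGC, TTTCGCGC, TTTGGCGC or TTTGCCGC, on either strand) before *Ppat* alone (3.85% against 2.16%). Among the 8 members with an upstream region that were lower in mutants at an unadjusted p under 0.05 (given below), CCAAT preceded 5 (*Gart*, *Rrm1*, *Rrm2*, *Mthfd1* and *Shmt1*) and the E-box preceded 0, while among the other 18 members CCAAT and the E-box each preceded 6. These are matches of letters in a short window and carry no test.

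Across the whole list, mutant values leaned lower by a small amount. The log2 fold change (mutant minus control, from limma on log2 of the normalized count plus 1) was below 0 for 20 of the 28 members and above 0 for 8, with a median of -0.069 and a range from -0.23 for *Pfas* to 0.15 for *Prps1*. The median over all 17168 tested genes was -0.002, and over the 6699 genes in the members' own range of mean values it was -0.006. At an unadjusted p under 0.05, 9 members were lower (*Prps2*, *Gart*, *Pfas*, *Adsl*, *Umps*, *Rrm1*, *Rrm2*, *Mthfd1* and *Shmt1*) and 1, *Prps1*, was higher. The same threshold took 6.89% of all tested genes as lower and 6.67% as higher, or 8.12% and 8.28% of the genes in the members' range of mean values. The members' median was -0.114 without control 3 and -0.039 without control 2. In 8 members every mutant pool lay below every control pool, and in 1 (*Ctps2*) every mutant pool lay above. Of all tested genes, 10.5% lay entirely lower and 9.77% entirely higher, or 12.7% and 11.3% of the genes in the members' range of mean values.

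After adjustment over all tested genes by the Benjamini-Hochberg method, 0 of the 28 members passed 0.05 by limma, which called 86 genes in all (0.501%). edgeR on the recovered reads also called 0 members, with 0.539% of its genes called, and had 10 members at an unadjusted p under 0.05 beside 14.9% of its genes. DESeq2 on those reads called 1 member, *Pfas* (adjusted p = 0.0234), with 1.99% of its genes called. Control pool 3 weighed on these counts: without it, limma called 7 members (*Prps2*, *Gart*, *Pfas*, *Umps*, *Nme1*, *Mthfd1* and *Shmt1*), all lower, while 2.75% of all genes were called, and without any other single pool it called 0.

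**Figure D1:**
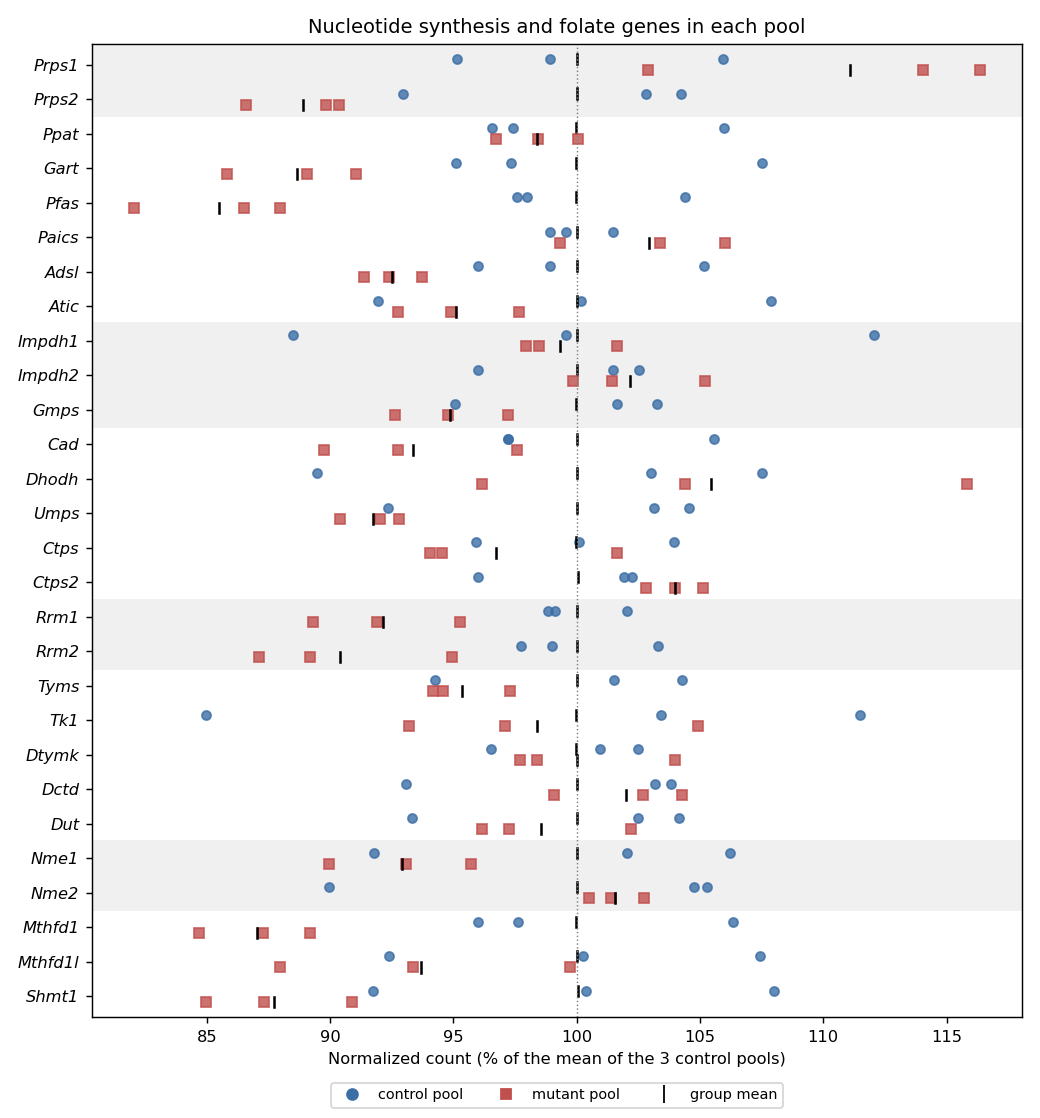
Normalized count of each member in each pool, as a percentage of the mean of the 3 control pools (x axis), with control pools as blue circles, mutant pools as red squares and group means as black ticks; shaded bands separate the branches in the order of the text. Mutant squares lie wholly left of the control circles for *Prps2*, *Gart*, *Pfas*, *Adsl*, *Rrm1*, *Rrm2*, *Mthfd1* and *Shmt1*, and wholly right of them for *Ctps2*.

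At the entry point of the pathway the log2 fold changes had opposite signs. *Prps1* and *Prps2* encode the isoenzymes that make PRPP, and both genes lie on the X chromosome (*Prps1* at chrX:140456613-140476140 on the plus strand and *Prps2* at chrX:167346322-167382749 on the minus strand, GENCODE M21, GRCm38). *Prps1* measured 889, 799 and 830 in the control pools and 863, 977 and 957 in the mutant pools, with mutant 1 inside the control range. Its mean was 11.1% higher in mutants (log2 fold change 0.15, SE 0.066, unadjusted p = 0.0454, limma adjusted p = 0.356). *Prps2* measured 1171, 1187 and 1059 in controls against 1029, 1023 and 986 in mutants, without overlap. Its mean was 11.1% lower (log2 fold change -0.17, SE 0.058, unadjusted p = 0.0155, limma adjusted p = 0.235).

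The balance of these isoenzymes within a pool does not depend on the size factor. The log2 ratio of *Prps1* to *Prps2* was -0.397, -0.571 and -0.351 in controls and -0.253, -0.066 and -0.044 in mutants, so every mutant pool had relatively more *Prps1*. The groups differed by 0.319 (exact two-sided permutation test, p = 0.1, the smallest that 3 against 3 pools allow, and 0.35 adjusted over the 7 partner ratios tested). Per kilobase of exon (all annotated exons of a gene merged), the ratio moved from 1.39 in controls to 1.73 in mutants. Both genes are X-linked and *Xist* differed between pools. With log2 *Xist* as a covariate, a fit chosen after seeing the data, the differences were 0.26 for *Prps1* and -0.25 for *Prps2* (limma adjusted p = 0.317 and 0.287). The labels do not give the sex of the pooled lungs, so how far this fit accounts for sex is not known. *Prps1* also shares 9.93% of its 50-base transcript windows with *Prps1l3*, so part of its reads could have been assigned elsewhere.

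**Figure D2:**
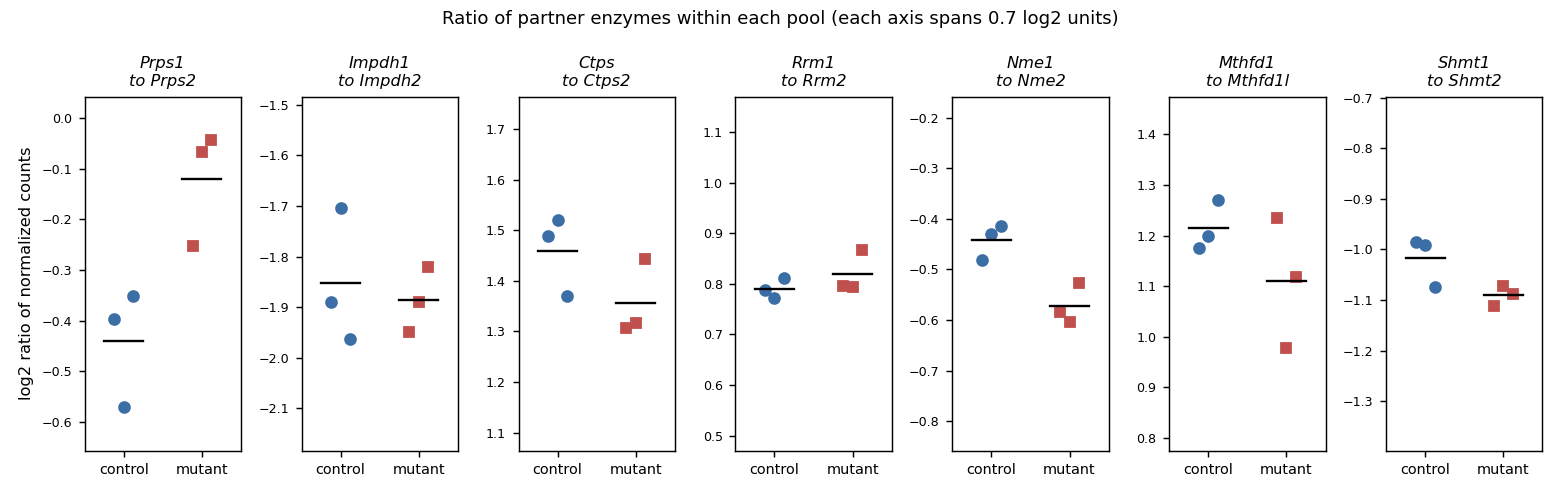
The log2 ratio of normalized counts of 7 pairs of partner enzymes within each pool (y axes, each spanning 0.7 log2 units), with control pools as blue circles, mutant pools as red squares and group means as black bars. *Prps1* to *Prps2* and *Nme1* to *Nme2* are the pairs whose groups do not overlap, in opposite directions.

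From PRPP to IMP, *Gart*, *Pfas* and *Adsl* were lower at an unadjusted p under 0.05, and *Ppat*, *Paics* and *Atic* did not pass. *Pfas*, which encodes the amidotransferase phosphoribosylformylglycinamidine synthase (chr11:68985697-69008460, minus strand), had the lowest log2 fold change of the members. It measured 2256, 2246 and 2403 in controls and 1889, 2025 and 1991 in mutants. The highest mutant pool lay below the lowest control pool, and the mean was 14.5% lower (log2 fold change -0.23, SE 0.048, unadjusted p = 0.000764, adjusted p = 0.0813 by limma and 0.0754 by edgeR). *Gart*, whose trifunctional product precedes PFAS and follows it in the chain and uses formyl folate (chr16:91621186-91646952, minus strand), measured 3330, 3678 and 3254 in controls and 3047, 2936 and 3115 in mutants. Its groups did not overlap either, with a mean 11.3% lower (log2 fold change -0.17, SE 0.052, unadjusted p = 0.00795, limma adjusted p = 0.188). *Adsl*, the lyase that acts in this chain and again on the way to adenine nucleotides, measured 2171, 2308 and 2107 against 2006, 2057 and 2028. It was 7.52% lower without overlap (log2 fold change -0.11, unadjusted p = 0.0367, limma adjusted p = 0.328).

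The remaining purine enzymes overlapped between the groups. *Ppat*, which catalyses the committed step, had a log2 fold change of -0.022 (95% interval -0.132 to 0.089), and *Atic*, which closes the ring, of -0.07 (-0.195 to 0.055). *Paics*, a bifunctional enzyme between PFAS and ADSL, stood at 7191 to 7377 in controls and 7221 to 7707 in mutants, with a log2 fold change of 0.041 (-0.044 to 0.127). *Paics* thus had a positive value between the negative values of *Pfas* and *Adsl*. *Ppat* and *Paics* are neighbours on opposite strands of chromosome 5 whose annotated 5′ ends overlap by 272 bases, and whether the counting used strand is not given in the sources used here.

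From IMP to guanine nucleotides no member reached an unadjusted p under 0.05. *Impdh1* measured 1106, 1245 and 983 in controls and 1088, 1094 and 1129 in mutants, and *Impdh2*, the main isoenzyme of dividing cells, measured 4099, 4057 and 3838 against 4206, 4056 and 3992. *Impdh1* had mutant pools close together within the control range, and *Impdh2* had mutant pools within or just above it. Their log2 fold changes were -0.0034 and 0.031. Their log2 ratio differed by -0.035 (exact permutation p = 0.8), and 39.3% of the *Impdh2* windows are shared with *Impdh2-ps*. *Gmps*, which finishes guanine nucleotide synthesis, ranged from 2689 to 2920 in controls and from 2620 to 2749 in mutants (log2 fold change -0.075, unadjusted p = 0.130).

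In the pyrimidine branch 1 of the 5 members had an unadjusted p under 0.05, and the median log2 fold change was -0.048, with no test against the other branches. Leaving out control 1 gave a median of -0.02, mutant 2 of -0.028, control 3 of -0.077 and mutant 3 of -0.084. *Cad*, the multienzyme protein that starts the branch, measured 5135, 5578 and 5135 in controls and 4741, 5155 and 4900 in mutants, so mutant 2 overlapped the controls (log2 fold change -0.099, unadjusted p = 0.0661). *Dhodh*, the mitochondrial enzyme that oxidises the ring and the member with the lowest mean value, ranged from 548 to 658 in controls and from 589 to 709 in mutants (log2 fold change 0.077, 95% interval -0.121 to 0.275). *Umps*, which makes UMP, measured 3008, 2967 and 2657 in controls and 2648, 2670 and 2601 in mutants. Its mutant pools lay close together and below controls 1 and 2, but mutant 2 exceeded control 3 (log2 fold change -0.12, SE 0.052, unadjusted p = 0.0404, limma adjusted p = 0.339).

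*Ctps* and *Ctps2* encode the isoenzymes that make CTP. *Ctps* measured 2954, 2845 and 2726 in controls and 2687, 2673 and 2888 in mutants, with overlap (log2 fold change -0.048). X-linked *Ctps2* measured 1052, 991 and 1055 against 1085, 1073 and 1061, so all 3 mutant pools stood just above the controls, yet the difference was 3.92% (log2 fold change 0.056, 95% interval -0.056 to 0.168). Their log2 ratio differed by -0.104 (exact permutation p = 0.2).

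Both members of ribonucleotide reductase, the enzyme that makes deoxynucleotides, were lower. *Rrm1*, the large subunit (chr7:102441695-102469771, plus strand), measured 8201, 8464 and 8224 in controls and 7903, 7410 and 7624 in mutants, without overlap. The mean was 7.84% lower (log2 fold change -0.12, SE 0.039, unadjusted p = 0.0119, limma adjusted p = 0.211). *Rrm2*, the small subunit that peaks in S phase (chr12:24708241-24714146, plus strand), measured 4748, 4954 and 4688 against 4553, 4278 and 4179, also without overlap. It was 9.59% lower (log2 fold change -0.15, SE 0.045, unadjusted p = 0.00818, limma adjusted p = 0.191). The ratio of the subunits differed by 0.028 on the log2 scale (exact permutation p = 0.4), with an SD of 0.019 over control pools and 0.042 over mutant pools.

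The thymidylate and dUTP enzymes showed no member at an unadjusted p under 0.05, with a median log2 fold change of -0.016. *Tyms*, which methylates dUMP with folate, was between 2323 and 2570 in controls and between 2321 and 2398 in mutants (log2 fold change -0.068, 95% interval -0.174 to 0.039). The salvage kinase *Tk1* spread from 1435 to 1883 among the controls alone, so that its interval ran from -0.215 to 0.184. *Dtymk*, which phosphorylates the product of both enzymes, had a log2 fold change of 0.0005 (-0.104 to 0.105). For *Dctd*, the deaminase that feeds dUMP, the value was 0.030 (-0.096 to 0.156), and for *Dut*, the dUTPase, -0.020 (-0.138 to 0.098).

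*Nme1* and *Nme2* are the kinases that produce the triphosphates, and neither reached an unadjusted p under 0.05. *Nme1* measured 4086, 4254 and 3676 in controls and 3728, 3603 and 3834 in mutants (log2 fold change -0.10, unadjusted p = 0.0912). *Nme2* measured 5703, 5732 and 4898 against 5593, 5472 and 5519 (log2 fold change 0.026). Within a pool, the log2 ratio of *Nme1* to *Nme2* was -0.481, -0.430 and -0.414 in controls and -0.585, -0.603 and -0.526 in mutants, lower in every mutant pool. The difference was -0.129 (exact permutation p = 0.1, adjusted 0.35). The genes are neighbours on chromosome 11, and 47.0% of the *Nme2* windows and 11.1% of the *Nme1* windows are shared with the annotated readthrough gene *Gm20390*, so their split of reads is uncertain.

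The 3 folate members were all lower in mean, with a median log2 fold change of -0.187. *Mthfd1*, the trifunctional cytosolic enzyme that makes formyl and methylene folate (chr12:76255298-76319803, plus strand), measured 2622, 2856 and 2579 in controls and 2396, 2275 and 2344 in mutants. There was a gap between the groups, and the mean was 12.9% lower (log2 fold change -0.20, SE 0.049, unadjusted p = 0.00236, limma adjusted p = 0.124). *Shmt1*, the cytosolic enzyme that moves a carbon from serine to folate (chr11:60788104-60811718, minus strand), measured 1518, 1633 and 1387 against 1320, 1374 and 1285. Mutant 2 came close to control 3 without overlapping it, and the mean was 12.3% lower (log2 fold change -0.19, SE 0.063, unadjusted p = 0.0140, limma adjusted p = 0.226). *Mthfd1l*, the mitochondrial source of formate, measured 1160, 1243 and 1069 in controls and 1018, 1154 and 1080 in mutants, with overlap (log2 fold change -0.094, 95% interval -0.246 to 0.059). The ratio of *Mthfd1* to *Mthfd1l* differed by -0.105 (exact permutation p = 0.3), and that of *Shmt1* to its mitochondrial counterpart *Shmt2*, which measured 3005, 3248 and 2922 against 2853, 2889 and 2733, by -0.073 (p = 0.2).

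**Figure D3:**
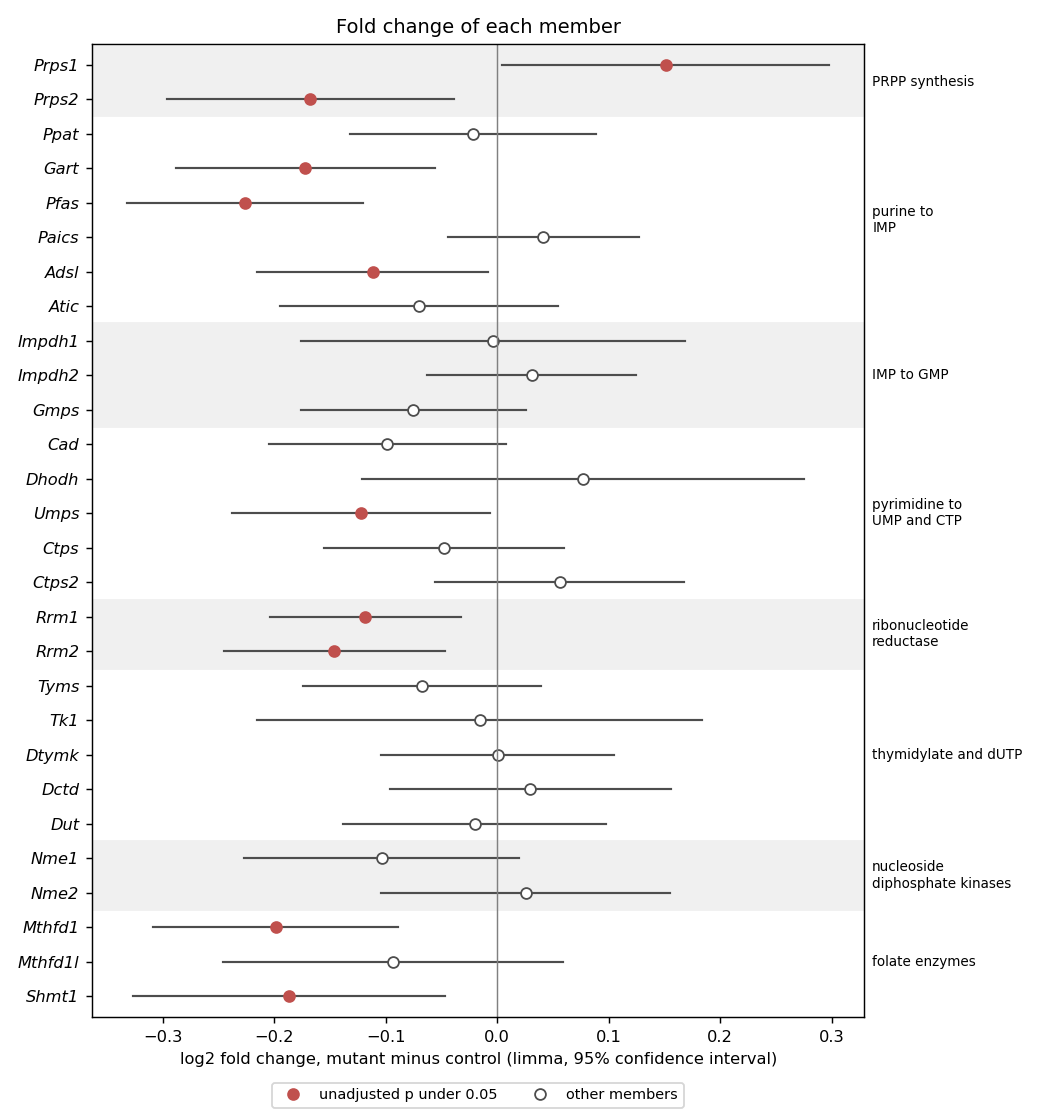
Log2 fold change of each member, mutant minus control, from limma (x axis), with the 95% confidence interval as a line; filled points have an unadjusted p under 0.05, and shaded bands separate the branches named at the right. The 3 folate members and both subunits of ribonucleotide reductase lie left of 0, while the 5 thymidylate and dUTP members lie between -0.068 and 0.030.

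Levels among the members spanned a wide range. Per kilobase of exon, the control mean was highest for *Nme2* at 4649, followed by *Paics* at 2924, *Rrm2* at 2187, *Impdh2* at 2152 and *Rrm1* at 2076. The length merges all annotated exons of a gene, whichever transcripts were present, so this order also depends on the annotation. The lowest were *Mthfd1l* and *Ctps2*, both at 271, *Dhodh* at 300.2 and *Prps2* at 308. The genes that were lower in mutants therefore included both high (*Rrm1*, *Rrm2*) and low (*Prps2*, *Pfas* at 361) levels per kilobase. A set of 7 members shared no 50-base window with any other annotated gene (*Impdh1*, *Cad*, *Ctps2*, *Dctd*, *Dut*, *Mthfd1* and *Mthfd1l*). *Gart* shared 15.5% with *Gm15964*, *Umps* 4.88%, *Rrm2* 4.95%, *Shmt1* 3.37%, *Rrm1* 2.41%, *Pfas* 1.02% and *Adsl* 0.882%. How the counting treated reads with several matches is not given in the sources used here, and *Hba-a1* and *Hba-a2*, a near-identical pair of blood genes, were at 0 in every library.

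The control pools differed among themselves in most members. Control 3 was the lowest control for 21 of the 28 members, control 2 was the highest of all 6 pools for 17, and the SD of log2 values was larger among controls than among mutants for 22. Averaged over the 28 members, log2 values relative to the mean of the 6 pools were 0.049, 0.079 and -0.039 in controls and -0.044, -0.014 and -0.031 in mutants, so control 3 lay among the mutants. The averages of the 3 folate members did not overlap between the groups: 0.073, 0.183 and -0.017 in controls and -0.100, -0.045 and -0.095 in mutants. Nor did those of ribonucleotide reductase (0.051, 0.104 and 0.043 against -0.006, -0.098 and -0.094). *Rrm1* and *Rrm2* were each without overlap, so their average could not overlap and adds nothing to the values per gene. The folate average likewise holds 2 members without overlap among its 3. The 6 enzymes from PRPP to IMP, of which 3 were without overlap by themselves, gave 0.032, 0.101 and 0.007 against -0.051, -0.063 and -0.026. The averages of the other groups of members overlapped, and differences between branches were not tested.

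Markers of cell types and of proliferation also differed between these pools. Of 20 epithelial markers, 18 were lower in mutants, 17 of them at an unadjusted p under 0.05 and 7 after adjustment (limma), with a median log2 fold change of -0.435. Their summed normalized count was 17680 to 21940 in controls and 14030 to 15200 in mutants, and their average relative to the 6 pools was 0.218, 0.329 and 0.028 in controls and -0.143, -0.280 and -0.153 in mutants. Control 3 was the lowest control for the epithelial markers as for the members. By this average, mutant 2 was the lowest pool for the epithelial markers and the highest mutant pool for the members. By summed normalized count, mutant 2 was the lowest pool for both, with 76960 for the members against 77320 and 77090 in mutants 1 and 3. Of 13 mesenchymal markers, 12 were higher (3 after adjustment, median 0.134, summed 97200 to 103500 against 118100 to 125700). The 3 were the collagen genes *Col1a1*, *Col1a2* and *Col3a1*, which held most of that sum. Their means were 19800, 24270 and 27390 in controls and 27830, 30640 and 32860 in mutants. Of the other mesenchymal markers, *Tbx5* and *Tcf21* were higher without overlap, and the rest overlapped between the groups. Of 8 endothelial markers, 7 were higher, 5 at an unadjusted p under 0.05 (median 0.192, summed 12150 to 13800 against 13950 to 14670).

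Of 20 S phase and replication genes, markers of dividing cells, 18 were lower, 7 at an unadjusted p under 0.05 against 1 higher, with a median log2 fold change of -0.059 beside -0.069 for the members (summed 70390 to 76790 against 69960 to 70500). Of 12 genes of G2 and mitosis, 9 were lower, 3 at that threshold (median -0.055, summed 58980 to 61580 against 57180 to 58870). Cardiac muscle markers were lower in 6 of 8 (2 at an unadjusted p under 0.05, summed 690 to 748 against 535 to 571), macrophage markers were higher in 7 of 7 (0 at that threshold, summed 1310 to 1684 against 1554 to 1702), and neural markers were lower in 5 of 7 (2 at that threshold, summed 1962 to 2089 against 1610 to 2044). Erythroid markers were lower in 4 of the 7 tested (0 at that threshold, summed 98780 to 127100 against 97750 to 122100). No marker that passed the filter was at 0 in any pool. The part of cell makeup, of proliferation and of sex in the members' differences was not tested.

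**Figure D4:**
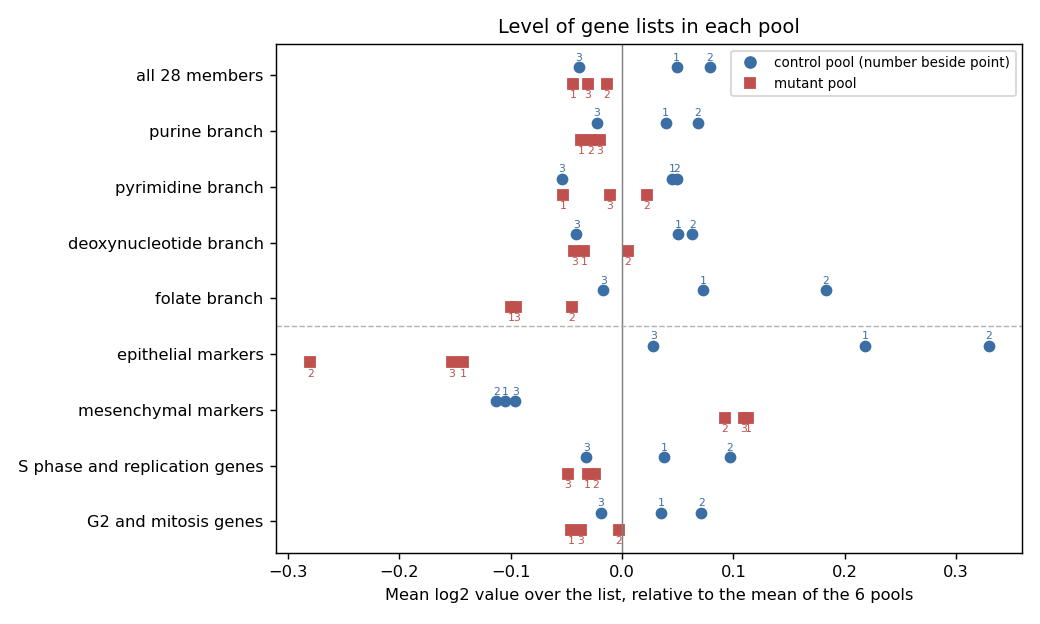
Mean log2 value over each gene list relative to the mean of the 6 pools (x axis), with control pools as blue circles and mutant pools as red squares, each with its pool number; a dashed line separates the members and their branches from the marker lists. Control 3 lies lowest of the controls for the members, for epithelial markers and for S phase and replication genes, at -0.039, 0.028 and -0.032.

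The wider pathway was read from a list of 90 further genes of salvage, degradation, folate and transport, of which 88 were tested. At an unadjusted p under 0.05, 11 were lower and 3 higher, where 6.89% of all tested genes were lower and 6.67% higher. The median log2 fold change of the list was -0.032. After adjustment 1 gene passed: *Pnp*, the phosphorylase that releases guanine and hypoxanthine from purine nucleosides, fell from 883, 860 and 860 in controls to 658, 730 and 694 in mutants (log2 fold change -0.32, SE 0.058, adjusted p = 0.0495 by limma, 0.0431 by edgeR and 0.0137 by DESeq2). It sat at the threshold, and over 16 alternative fits its adjusted p ranged from 0.0137 to 0.283 and was under 0.05 in 4. *Ak4*, a mitochondrial adenylate kinase, measured 685, 606 and 819 against 521, 480 and 496, without overlap (log2 fold change -0.48, limma adjusted p = 0.0734, DESeq2 adjusted p = 0.00196). *Gmpr*, which returns guanine nucleotides to IMP, measured 269, 309 and 269 against 357, 329 and 320 (log2 fold change 0.25, limma adjusted p = 0.252).

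In the supply of carbon groups, 3 of 9 genes of serine and glycine metabolism were lower without overlap and 1 was higher. Of all tested genes, 10.5% lay entirely lower and 9.77% entirely higher. *Amt*, of the glycine cleavage system, measured 441, 434 and 450.3 in controls and 352, 331 and 338 in mutants (log2 fold change -0.38, limma adjusted p = 0.0512, DESeq2 adjusted p = 0.0368). *Gldc*, of the same system, measured 196, 175 and 218 against 170, 130 and 136 (log2 fold change -0.43, limma adjusted p = 0.193). *Gcsh* and *Dld*, also of that system, overlapped between the groups (log2 fold change 0.030 and 0.020, limma unadjusted p = 0.646 and 0.640). *Phgdh*, the first enzyme of serine synthesis, measured 4551, 4693 and 4161 against 3862, 3963 and 3952 (log2 fold change -0.19, limma adjusted p = 0.141). The higher gene, *Sardh*, which oxidises sarcosine and is named here after its values were seen, measured 752, 828 and 519 against 898, 1016 and 865 (log2 fold change 0.43, unadjusted p = 0.0143, limma adjusted p = 0.227, DESeq2 adjusted p = 0.0703). The same 4 genes were those of the list at an unadjusted p under 0.05.

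Among 21 other folate cycle genes, 3 were lower and 1 higher at that threshold, which took 6.89% and 6.67% of all tested genes. Their median log2 fold change was -0.014, with 12 below 0 and 9 above. The mitochondrial dehydrogenase *Mthfd2* measured 878, 1006 and 871 against 814, 829 and 811 (log2 fold change -0.16, limma adjusted p = 0.306), and *Shmt2*, given above, was 7.63% lower in mean (limma adjusted p = 0.350). *Ggh*, which trims the glutamate tail of folates, measured 165, 198 and 173 against 236, 204 and 203 (log2 fold change 0.26, limma adjusted p = 0.343). Pyrimidine salvage held 0 of 18 genes and the other deoxynucleotide genes 0 of 11 at an unadjusted p under 0.05, and 0 of either list passed adjustment by limma, edgeR or DESeq2. Of 6 tested nucleoside transporters, 0 passed adjustment by limma, edgeR or DESeq2, and 1 had an unadjusted p under 0.05, *Slc29a4*, at 456, 485 and 509 against 405, 429 and 415 (log2 fold change -0.21, limma adjusted p = 0.219).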

How the data were processed

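RNA-Seq of 6 whole-lung pools (3 control, 3 mutant) was analysed. Per the labels, the authors' processing notes name Trim Galore, HISAT2, featureCounts and DESeq2 with build mm10; versions, annotation, strand and options are not given in the sources used here. The deposited values are a signal per gene, reads divided by a size factor. Every value was a whole multiple of 1 step per library within 0.001 reads, so reads were recovered for all 6 libraries (100% whole). Control 3, whose step is near 1, rests on that check alone. Columns of the authors' own comparison (mean, fold change, its error, statistic, p-values) were not used. The symbols of 27 other genes appear as dates.

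Genes of at least 1 in at least 3 libraries were fitted with limma 3.58.1 (R 4.3.3) on log2(value + 1), with trend and no block; p-values were adjusted by Benjamini-Hochberg over all tested genes. Fold changes are on that log2 scale. edgeR 4.0.16 (quasi-likelihood, TMM) and DESeq2 1.42.0 were fitted to the recovered reads. Ratios were compared by exact permutation. Scripts were tested on simulated data. Coordinates are GENCODE M21, upstream sequences RefSeq GRCm38.p6.

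The members and the marker and pathway lists were chosen with earlier results of these data known. Values per pool are given for members with an unadjusted p under 0.05, without overlap between groups, or in partner pairs, and for at most 3 genes per wider list by lowest p. *Hbb-bt* and *Ak6* were not matched to the table.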

Additional observations from a re-analysis of the deposited data

How the results depend on the processing

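Over 16 alternative fits, 14 planned and 2 chosen after seeing the data (log2 *Xist* as a covariate, and edgeR with the replicate block), 19 of 28 members kept their direction in every one. The count of all genes called was 278 with DESeq2 and 8 with limma without the trend. Members lower at an unadjusted p under 0.05 were 5 without the trend (5.75% of all tested genes, against 6.89% in the main analysis), and the 1 higher member was lost (0) with DESeq2, without the trend, and with the replicate block by limma or edgeR. Members called after adjustment were 1 with DESeq2. Wider pathway genes at an unadjusted p under 0.05 were 6 lower and 1 higher with DESeq2, which took 4.36% of all its genes as lower. With the *Xist* covariate the median log2 fold change was -0.138 over the members, -0.147 for the purine branch, -0.123 for the deoxynucleotide branch and -0.291 for the folate branch, and the values of *Impdh2* (-0.0209) and *Nme2* (-0.087) changed sign. With it *Pfas* went from -0.226 to -0.147 (limma adjusted p = 0.442) and *Gmps* from -0.0751 to -0.0031, and the pyrimidine median was -0.067. *Dtymk*, near 0, was -0.0001 with upper-quartile scaling, -0.0004 with edgeR and -0.0005 with edgeR and the replicate block. The causes were not tested.

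Leaving out each pool in turn, all genes called ranged from 1 (without control 1, and without mutant 3) to 468 (without control 3), with 147 without control 2, 12 without mutant 1 and 21 without mutant 2. Members lower at an unadjusted p under 0.05 ranged from 5 to 15 (15 without control 3, where 8.58% of all genes were lower at that threshold, and 5 without mutant 3, where 4.92% were), higher from 0 to 1, and members called from 0 to 7. Wider pathway genes at that threshold ranged from 6 lower (without mutant 1, where 5.5% of all genes were) to 13 lower (without control 3), and from 1 to 3 higher. Medians ranged from -0.114 (without control 3) to -0.039 (without control 2) for the members, from -0.088 to -0.014 (without control 2) for the purine branch, from -0.084 (without mutant 3) to -0.02 (without control 1) for the pyrimidine branch, from -0.11 (without control 3) to -0.001 (without control 1) for the deoxynucleotide branch and from -0.227 to -0.13 for the folate branch. Sign changes occurred for *Ppat* (-0.0464 to 0.021), *Impdh1* (-0.0884 to 0.0818), *Dhodh* (-0.0013 to 0.141), *Tk1* (-0.1282 to 0.0677), *Dtymk* (-0.0279 to 0.0186), *Dctd* (-0.0213 to 0.0576), *Dut* (-0.0687 to 0.0103), *Nme2* (-0.0486 to 0.0647) and the ratio of *Impdh1* to *Impdh2* (-0.09 to 0.04).

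The labels do not say whether same-numbered pools share a litter or a batch. The deviations of such pools from the group means correlated at -0.032, 0.199 and 0.077 over 11458 genes. With the replicate block, limma called 71 genes and 0 members, with 10 members lower at an unadjusted p under 0.05 beside 6.8% of all tested genes. The lowest value of a member rested on 551 reads, and the effect of depth was not tested.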
